A study of Rattus norvegicus with 3 samples.

Results

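Thyroid hormone reaches its receptors in a cell through carriers that bring it in, deiodinases that activate or inactivate it, and proteins that bind it in plasma or cytosol. These steps are described here in the rat pineal gland by night and by day, and in a pool of other tissues. The rule named 9 genes: the deiodinases Dio2, Dio1 and Dio3, the receptors Thra and Thrb, the membrane carriers Slc16a10 and Slco1c1, and the binding proteins Ttr and Crym. Of these, 8 were found by symbol, as 9 entries, among 16632 genes and unnamed regions (17089 entries). Crym was not analysed here.

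The study compared 3 poly(A) RNA libraries from adult Sprague-Dawley rats of no stated genotype, all housed in a cycle of 14 h light and 10 h dark. One library is from pineal glands taken at midnight (zeitgeber time 19, in hours after lights on), one from pineal glands taken at mid-day (zeitgeber time 7), and one, also of zeitgeber time 7, from RNA of 15 non-pineal tissues combined in equal amounts: pituitary, adrenal gland, liver, heart, retina, kidney, lung, skeletal muscle, small intestine, spinal cord and the brain regions cortex, cerebellum, midbrain, hindbrain and hypothalamus. Each group has 1 library, and the labels do not give the number of animals behind it, so no difference below has a replicate check and none has a p-value. The pool gives a level averaged over 15 tissues and cannot show which of them holds a transcript. In bulk tissue, fewer cells of a type and less RNA per cell cannot be told apart.

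Thyroxine (T4), the main product of the thyroid, is a prohormone that deiodinases convert to the active triiodothyronine (T3). Type 2 deiodinase makes T3 inside the cell that uses it, type 1 deiodinase acts mainly in liver and kidney, and type 3 deiodinase inactivates both hormones. The receptors are nuclear and bind DNA with retinoid X receptors. In the rat pineal gland, type 2 deiodinase activity is known to be high at night under noradrenergic and cAMP control.

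Levels are given in FPKM, fragments per kilobase of transcript relative to all fragments mapped in a library, a unit in which different genes can be set side by side. Ratios are log2 ratios of FPKM + 1, so the change of a weakly expressed gene is understated. Comparisons were limited to genes that reached FPKM 1 in at least 1 of the 2 libraries. From the steps between the lowest values of single-exon receptor genes, 1 FPKM on a 1 kb transcript stood for an estimated 5.29 fragments by night, 8.73 by day and 9.65 in the mixed tissues, so the night library had 60.5% of the depth of the day library. The night estimate rests on 4 gene models. Bounds given below are 95% exact Poisson or binomial bounds for a 1 kb transcript. They cover counting error only, and a longer transcript would give more fragments and narrower bounds. The pineal libraries were described with 10 pinealocyte markers. These were chosen with earlier results of these data known, so they are no independent check of the label. All 10 exceeded the mixed tissues at least 4-fold in both pineal libraries. Of all genes compared, 2.29% did so by day and 3.09% by night. The summed level of the 10 markers was 9681 FPKM by night, 7720 FPKM by day and 335 FPKM in the mixed tissues.

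Dio2 had the widest difference between night and day among the members. It stood at 76.8 FPKM by night, against 0.464 FPKM by day and 2.24 FPKM in the mixed tissues (chr6:114307757-114317563, rn4). The night library was thus high, and the day gland was the lowest of the 3. The log2 ratio of night over day was 5.73, the 4th highest of 9828 genes compared. In FPKM alone the night value was 165-fold the day value, with bounds of 65.0 to 619. Against the mixed tissues, Dio2 was 34.3-fold higher by night (bounds 21.9 to 54.4, log2 ratio 4.59), whereas by day the gland was below them (log2 ratio -1.14), by 4.82-fold in FPKM with bounds of 1.69 to 19.9. By night 97.3% of all genes lay below Dio2 in FPKM, and by day 36.8% did.

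Across the members, 1 of 8 was at least 2-fold higher by night on the FPKM + 1 scale, where 4.18% of all genes compared were, and 0 of 8 were at least 2-fold lower, where 2.12% were. Another 4 members (Thra, Thrb, Slc16a10 and Ttr) lay within 2-fold and 3 (Dio1, Dio3 and Slco1c1) were under FPKM 1 in both pineal libraries. Dio2 passed the FPKM filter through the night library alone. The median of all genes compared was -0.11, so a member at 0 stood slightly above the bulk. Against the mixed tissues, 0 of 8 members were at least 4-fold higher in the day gland (2.29% of all genes compared) and 2 were at least 4-fold lower (13.2%), namely Dio1 and Slco1c1. By night 1 of 8 was at least 4-fold higher (3.09% of all genes compared), which was Dio2, and the same pair was at least 4-fold lower (14.4%). Dio3 was not compared. Dio1 and Slco1c1, and Dio2 by day, were under FPKM 1 in the gland. There they passed the filter through the mixed tissues alone and had to come out below them. The medians of all genes were -0.27 by day and -0.36 by night. The comparisons share libraries: the day gland enters the first and second, the night gland the first and the last, and the mixed tissues all but the first.

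**Figure D1:**
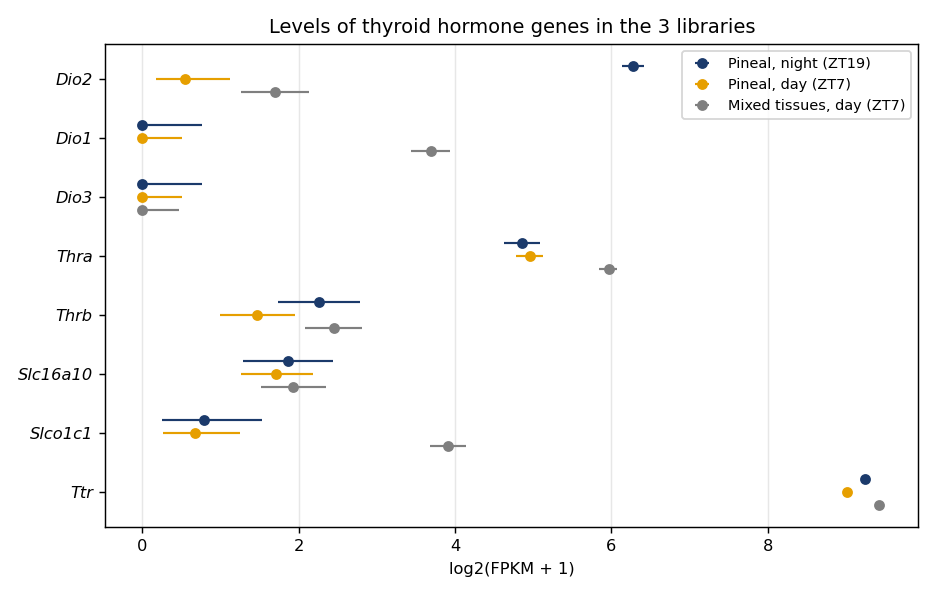
Level of each of the 8 genes in log2(FPKM + 1) in the night pineal library, the day pineal library and the mixed tissues, with bars for the 95% Poisson bounds of a 1 kb transcript (counting error only). Dio2 is high by night (76.8 FPKM), Dio1 and Slco1c1 are high in the mixed tissues (11.9 and 14.1 FPKM), and Ttr is the highest of the 8 in each library.

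Of the other deiodinases, Dio1 was listed at 0 FPKM by night, at 0 by day and at 11.9 FPKM in the mixed tissues (chr5:128385701-128404015), a pool that holds liver and kidney, tissues known for this enzyme. The log2 ratio against the mixed tissues was -3.69 in both pineal libraries, a value that depends on the added 1. Dio3 was listed at 0 in all 3 libraries (chr6_random:1588183-1590044, an unplaced piece of the assembly). A listing of 0 can be a failed estimate, since 2610 genes were at 0 throughout, among them Tceb1, a transcription elongation factor subunit, and Gpx1, an abundant glutathione peroxidase. So no statement is made on the level of Dio3.

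The windows of 250 bases before the annotated starts of the 3 deiodinases are shown because they are the starts of the activating and inactivating enzymes. They are from the RefSeq promoter table on build GRCr8, which held windows for 7 of the 9 genes. Each is written 5′ to 3′ on the strand of its gene. Capitals mark matches to the motifs searched on both strands: TGACGTCA (the cAMP response element), its core TGACG, which lies within it, TAATCC (bound by Crx and Otx factors), CACGTG (E-box), AGGTCA (the nuclear receptor core motif) and TATAAA (the box of that name found ahead of some starts).
Dio2 (chr6:115410595-115410844, minus strand): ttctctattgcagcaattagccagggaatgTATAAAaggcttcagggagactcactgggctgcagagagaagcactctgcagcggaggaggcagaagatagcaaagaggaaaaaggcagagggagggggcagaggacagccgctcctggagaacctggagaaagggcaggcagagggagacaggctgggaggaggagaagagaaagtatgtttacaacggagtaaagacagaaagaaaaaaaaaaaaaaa
Dio1 (chr5:127319785-127320034, minus strand): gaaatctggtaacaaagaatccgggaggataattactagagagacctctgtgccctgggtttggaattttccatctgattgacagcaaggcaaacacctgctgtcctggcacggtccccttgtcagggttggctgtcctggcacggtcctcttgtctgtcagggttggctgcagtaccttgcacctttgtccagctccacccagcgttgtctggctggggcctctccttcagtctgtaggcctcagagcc
Dio3 (chr6:135106822-135107071, plus strand): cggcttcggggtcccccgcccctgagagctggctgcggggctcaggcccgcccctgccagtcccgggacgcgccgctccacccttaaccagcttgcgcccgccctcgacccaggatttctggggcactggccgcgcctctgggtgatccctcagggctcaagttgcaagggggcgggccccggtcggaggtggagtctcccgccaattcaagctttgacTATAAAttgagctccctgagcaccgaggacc
In the Dio2 window the single match was TATAAA, beginning 220 bases before the annotated start, and in the Dio3 window TATAAA began 31 bases before it. The Dio1 window held none of the 6 motifs. Of 33469 windows of this length, 12.9% held TATAAA, 1.59% TGACGTCA, 18.2% TGACG, 6.34% TAATCC, 5.59% CACGTG and 14.1% AGGTCA. The Dio2 window does not hold the letters of the full cAMP element. Its TATAAA lies near the far end of the window, so few bases ahead of that match were searched. Bases outside the 250 were not searched, so the absence holds for this window and not for the gene. The GC content was 49.6% in the Dio2 window, 55.2% in that of Dio1 and 68.8% in that of Dio3, with a median of 51.2% over all windows.

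Thra encodes the receptor alpha, whose alpha1 product binds T3 and whose alpha2 product, spliced differently at the end, does not. Its 2 entries summed to 28.0 FPKM by night, 30.0 by day and 61.5 in the mixed tissues. Night and day lay within each other's bounds (ratio 0.93, bounds 0.76 to 1.15), and the gland was lower than the mixed tissues by 2.05-fold by day (bounds 1.77 to 2.38, log2 ratio -1.01) and by 2.20-fold by night (log2 ratio -1.11). The entry NM_031134 (chr10:87526259-87542306) held most of the sum in each library, with 22.2 FPKM by night, 22.9 by day and 47.4 in the mixed tissues. The entry NM_001017960 (chr10:87514442-87538101) stood at 5.81 FPKM by night, 7.05 by day and 14.1 in the mixed tissues. Thus 79.2% of the sum by night, 76.5% by day and 77.1% in the mixed tissues came from NM_031134. Its span overlaps the span of Nr1d1, a clock repressor gene known to lie on the opposite strand, by 1062 bases. The main Nr1d1 entry was at 39.5 FPKM by night, 30.4 by day and 34.1 in the mixed tissues. Since the labels do not say that strand was kept, reads from the overlap cannot be assigned to either gene with certainty, and the split between the Thra entries is uncertain.

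Thrb encodes the receptor beta, which in the retina is known for its part in cone development. It was at 3.81 FPKM by night, against 1.76 by day and 4.48 in the mixed tissues (chr15:9282844-9369338), so the day gland was the lowest of the 3 and the night gland was close to the mixed tissues. The log2 ratio of night over day was 0.80, within 2-fold on the FPKM + 1 scale, and in FPKM alone 2.17-fold with bounds of 1.07 to 4.63. It was above the ratio of 94.4% of all genes compared. The log2 ratio against the mixed tissues was -0.99 by day and -0.19 by night, and the night ratio changes sign when the libraries are centred on the median gene (0.17). The sum of the Thra entries exceeded Thrb in FPKM by 7.35-fold by night, 17.1-fold by day and 13.7-fold in the mixed tissues. Most of that sum was NM_031134. The entry NM_001017960 alone, at 5.81 FPKM by night, 7.05 by day and 14.1 in the mixed tissues, was closer to Thrb. Which entry gives alpha1 or alpha2 was not determined here, so these ratios do not compare T3-binding receptors alone. The window before the annotated Thrb start is shown because it was the only member window with matches to 2 of the motifs, TGACG beginning 50 bases and GGATTA, which reads as the Crx and Otx motif on the other strand, beginning 40 bases before the start.
Thrb (chr15:10461447-10461696, minus strand): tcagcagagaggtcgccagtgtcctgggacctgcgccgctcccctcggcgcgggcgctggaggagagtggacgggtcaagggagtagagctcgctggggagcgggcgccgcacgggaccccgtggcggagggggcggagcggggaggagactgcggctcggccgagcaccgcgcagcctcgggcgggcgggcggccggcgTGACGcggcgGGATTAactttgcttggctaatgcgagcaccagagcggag
A match is a description of the letters and was not tested as a site. RefSeq lists several Thrb transcripts, and the table used here holds 1 window for the gene.

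Slc16a10 is a carrier of aromatic amino acids and thyroid hormones. It was at 2.64 FPKM by night, 2.28 by day and 2.81 in the mixed tissues (chr20:44211650-44325332), and all 3 libraries lay within each other's bounds. The night over day ratio was 1.16 with bounds of 0.54 to 2.41. Slco1c1, a T4 carrier known from brain capillaries and the choroid plexus, was at 0.721 FPKM by night, 0.595 by day and 14.1 in the mixed tissues (chr4:178959892-179006727). It was 23.6-fold lower in the day gland than in the mixed tissues (bounds 10.3 to 77.1, log2 ratio -3.24) and 19.5-fold lower in the night gland (bounds 7.11 to 69.3, log2 ratio -3.13). Both pineal values correspond to 5 fragments or fewer on 1 kb, so no difference between night and day was detectable at this depth. The 9 brain endothelium markers found, with Pecam1 at 6.62 FPKM by night, 6.23 by day and 31.9 in the mixed tissues, summed to 66.7 FPKM by night, 64.3 by day and 148 in the mixed tissues. Most of the pineal sum came from Slc2a1, the only marker of the list above the mixed tissues. It was at 43.2 FPKM by night, 37.5 by day and 25.8 in the mixed tissues. By day 4 of the 8 markers that could be compared were at least 4-fold lower in the gland (13.2% of all genes compared), and Cldn5 was listed at 0 in all 3 libraries. The part of vessel content in the Slco1c1 difference was not tested.

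**Figure D2:**
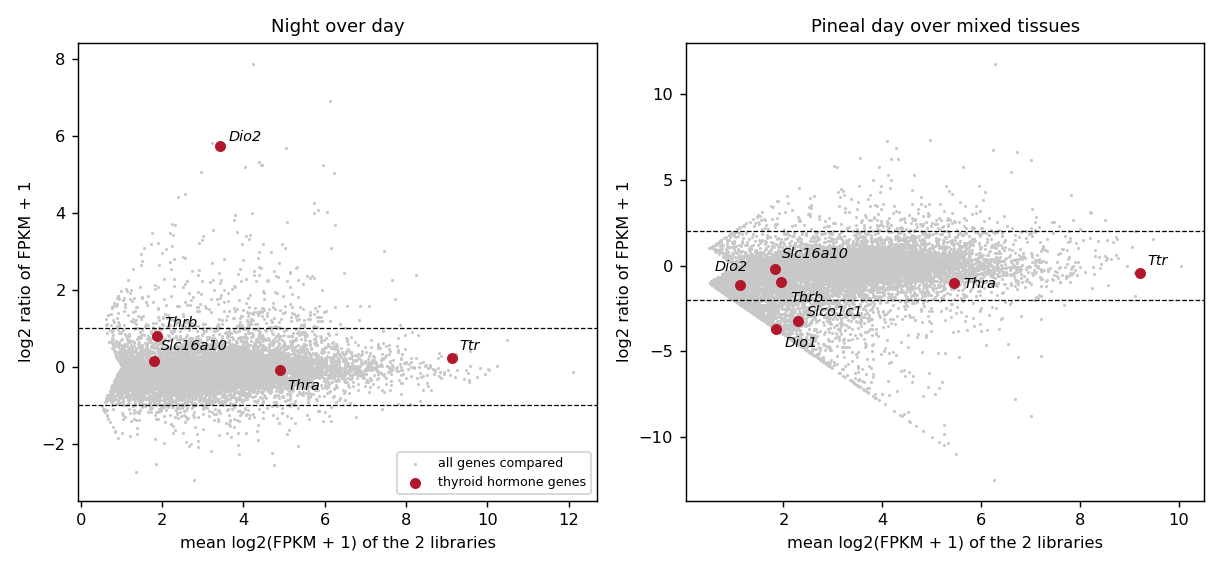
Log2 ratio of FPKM + 1 (vertical axis) against the mean log2(FPKM + 1) of the 2 libraries (horizontal axis) for all genes compared (grey) and the thyroid hormone genes (red), for night over day on the left and the day gland over the mixed tissues on the right, with dashed lines at 2-fold and 4-fold. Dio2 stands at 5.73 on the left, and Dio1 (-3.69) and Slco1c1 (-3.24) lie below the lower line on the right.

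Ttr encodes transthyretin, which carries T4 and, with a partner protein, retinol, and is known from liver and choroid plexus. It was by far the most abundant member, at 607 FPKM by night, 516 by day and 685 in the mixed tissues (chr18:12406570-12413680). These levels ranked 19th among all genes by night, 22nd by day and 15th in the mixed tissues. The night over day ratio was 1.18 with bounds of 1.12 to 1.23, a difference beyond counting error but small (log2 ratio 0.23), and without replicates it cannot be set against the spread between animals. The log2 ratio to the mixed tissues was -0.41 by day and -0.18 by night. The night ratio changes sign when the libraries are centred on the median gene (0.19), so no direction is given for the night gland.

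Markers of other cells that make Ttr were measured beside it. The liver markers Alb, Fgb and Cyp2e1 were listed at 0 in both pineal libraries, and Serpina1 was at 2.52 FPKM by night, 6.41 by day and 295 in the mixed tissues. The 13 choroid plexus markers summed to 138 FPKM by night, 213 by day and 138 in the mixed tissues. They were split: Kcne2, a potassium channel subunit (41.6 by night, 94.9 by day, 6.80 in the mixed tissues), Slc4a5, a bicarbonate transporter (39.8 by night, 54.6 by day and 2.26 in the mixed tissues), and F5, coagulation factor V (37.1 by night, 34.2 by day and 2.58 in the mixed tissues), exceeded the mixed tissues at least 4-fold in both pineal libraries. Prlr and Tmem72 were listed at 0 in both, while Folr1 (0.379 by night, 0.864 by day and 12.9 in the mixed tissues) and Cldn2 (0.246 by night, 0.381 by day and 11.6 in the mixed tissues) were low. Most of the pineal sum came from Kcne2, Slc4a5 and F5. Of the 12 markers compared with the mixed tissues by day, 3 were at least 4-fold higher (2.29% of all genes compared). Another 3 were lower (13.2%), namely Folr1, Cldn2 and Prlr, which could be compared through the mixed tissues alone. By night 3 of 12 were higher (3.09%) and 5 lower (14.4%), Aqp1 and Sostdc1 being added. Of the 7 markers that could be compared between night and day, 0 were at least 2-fold higher (4.18% of all genes compared) and 1, Kcne2, was lower (2.12%). The list median was -0.45 against -0.11 for all genes. The part of choroid plexus tissue in the Ttr level was not tested. Of the 4 retinal pigment epithelium markers found, Rlbp1 was at 19.8 FPKM by night, 13.5 by day and 17.4 in the mixed tissues, Lrat was under FPKM 1 in the gland, and Rpe65 and Best1 were listed at 0 in both pineal libraries and were low in the mixed tissues as well (1.52 and 0.305 FPKM). The part of that tissue was not tested.

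**Figure D3:**
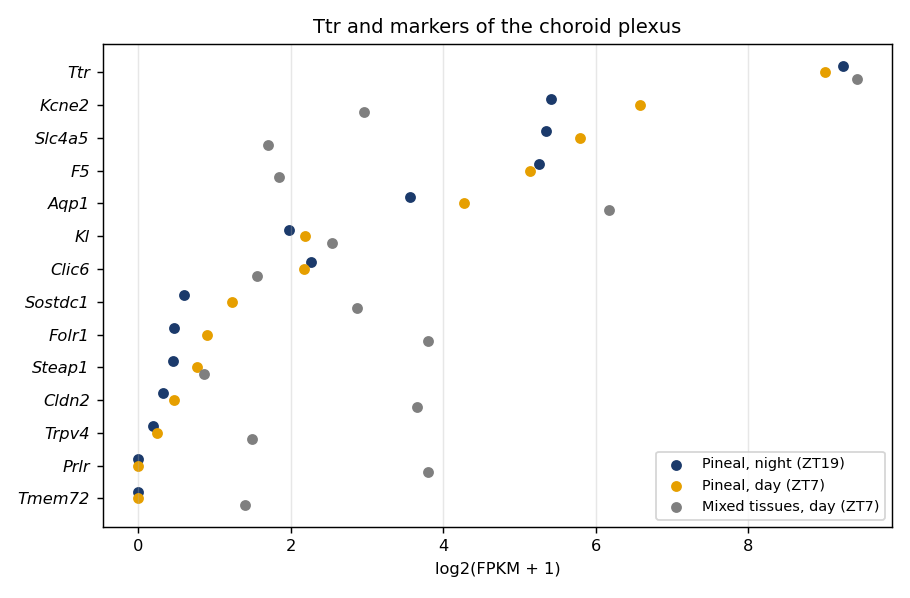
Log2(FPKM + 1) of Ttr and of the 13 choroid plexus markers in the night pineal, day pineal and mixed-tissue libraries, ordered by the day pineal level. Kcne2, Slc4a5 and F5 are higher in the gland than in the mixed tissues, whereas Folr1, Cldn2, Prlr and Tmem72 are higher in the mixed tissues.

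In order of level, Ttr led in each library. By night Dio2 followed, then Thra, and below them Thrb, Slc16a10 and Slco1c1, whose bounds overlapped with those of the next gene. By day Thra was next after Ttr, and Slc16a10, Thrb, Slco1c1 and Dio2 formed a low group in which the bounds of neighbours overlapped. In the mixed tissues Thra was followed by Slco1c1 and Dio1, which lay within each other's bounds, and then by Thrb, Slc16a10 and Dio2, whose bounds overlapped from one to the next.

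By the distance over the 3 values of log2(FPKM + 1), the genes most like Dio2 were Sik1, a salt-inducible kinase (distance 0.99, with 97.8 FPKM by night, 1.72 by day and 2.86 in the mixed tissues), Atp7b, a copper-transporting ATPase (distance 1.49), and Cited4, a transcriptional coregulator (distance 1.51). For Thra they were Ppp3ca, Fkbp1a and Ccng1 (distances 0.13 to 0.17), for Slco1c1 they were Acer2, Atp2a3 and Gulo (0.09 to 0.12), and for Ttr Atp5b, B2m and Actb (0.50 to 0.94). The genes nearest to Dio1, which are Mapk13, F9 and Gabrb2, share with it 2 listings of 0. With 3 libraries this likeness is a description of levels only.

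Other carriers differed in level between the gland and the mixed tissues. Slco4a1, an organic anion carrier of T3 and T4, was at 11.2 FPKM by night, 27.8 by day and 3.86 in the mixed tissues, so that it was lower by night (log2 ratio -1.24) and higher in the day gland than in the mixed tissues (log2 ratio 2.57). Slc7a5, an amino acid carrier that also takes iodothyronines, was at 45.2 FPKM by night, 22.4 by day and 15.8 in the mixed tissues (log2 ratio of night over day 0.98, just within 2-fold). Its heavy chain Slc3a2 was at 53.3 FPKM by night, 46.6 by day and 44.7 in the mixed tissues. Liver carriers were low in the gland, as Slc10a1 was at 0.358 FPKM by night, 0.514 by day and 24.0 in the mixed tissues, and Slco1a1 at 0.156 by night, 0.166 by day and 11.5 in the mixed tissues. Of 12 such carriers besides the members, 11 were found and 8 compared between night and day. Of these, 0 were higher, 1 was lower and 7 were within 2-fold, with a median of -0.12. Of all genes compared, 4.18% were higher and 2.12% lower. In the day gland, 1 was at least 4-fold higher than in the mixed tissues (2.29% of all genes compared), 2 were lower (13.2%) and 6 within, with a median of 0.06. The 2 lower, Slc10a1 and Slco1a1, were under FPKM 1 in the gland and could be compared through the mixed tissues alone.

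The partners of the receptors were detected in all 3 libraries. Rxrg, the retinoid X receptor known from cones, was at 58.9 FPKM by night, 109 by day and 5.81 in the mixed tissues, with log2 ratios against the mixed tissues of 3.14 by night and 4.01 by day and -0.87 for night over day. The broadly expressed Rxra was at 11.9 FPKM by night, 12.9 by day and 12.1 in the mixed tissues, and Rxrb at 20.02 by night, 23.2 by day and 15.3 in the mixed tissues. Hdac3, a histone deacetylase of corepressor complexes, was at 42.5 FPKM by night, 47.6 by day and 20.9 in the mixed tissues. All 12 partners and coregulators found of 15 listed were within 2-fold between night and day (median -0.08), as were 93.7% of all genes compared. Against the mixed tissues by day 1 was at least 4-fold higher (2.29% of all genes compared), 0 were lower (13.2%) and 11 were within (median 0.48).

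Deiodinases contain selenocysteine, and type 2 deiodinase is removed by ubiquitination. The counts within 2-fold in these lists are to be read against the same 93.7%. The 5 genes of selenocysteine insertion found of 8 listed were within 2-fold by night (median -0.36), with Secisbp2, which binds the insertion element, at 7.51 FPKM by night, 10.4 by day and 6.35 in the mixed tissues. Among 15 other selenoproteins found of 17 listed, 13 were compared between night and day and all were within 2-fold (median -0.02). Against the mixed tissues 14 of them were compared, and in both pineal libraries 1 was at least 4-fold higher and 4 were lower. Of all genes compared, 2.29% were higher and 13.2% lower by day, and 3.09% higher and 14.4% lower by night. The higher gene was Gpx4, a lipid peroxidase, at 666 FPKM by night, 854 by day and 103 in the mixed tissues. The lower genes were Gpx3, Sepp1, Selm and Gpx2. Sepp1, the selenium carrier of plasma, was at 48.4 FPKM by night, 49.1 by day and 437 in the mixed tissues. Gpx2 was under FPKM 1 in the gland, was compared through the mixed tissues alone and had to come out below them. In the ubiquitination list 7 of 8 could be compared and all 7 were within 2-fold (median 0.07). Wsb1, the substrate adaptor that recognises type 2 deiodinase, was at 44.5 FPKM by night, 39.8 by day and 38.6 in the mixed tissues. Usp33, a deubiquitinase that stabilises the enzyme, was at 77.7 FPKM by night, 44.8 by day and 29.3 in the mixed tissues (log2 ratio of night over day 0.78).

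Of 27 genes known from other tissues to respond to T3, 25 were found and 13 compared between night and day. Of these, 1 was at least 2-fold higher (4.18% of all genes compared), 1 lower (2.12%) and 11 within (median 0.16). The higher gene was Itpr1, an inositol trisphosphate receptor (57.9 FPKM by night, 21.5 by day and 31.8 in the mixed tissues, log2 ratio 1.39), and the lower was Cpt1a, the carnitine acyltransferase of fatty acid oxidation (10.2 FPKM by night, 34.6 by day and 21.3 in the mixed tissues, log2 ratio -1.67). Klf9, a transcription factor that responds to T3 in many tissues, was at 26.4 FPKM by night, 23.5 by day and 28.2 in the mixed tissues. Hr, which encodes the corepressor hairless, was at 58.1 FPKM by night, 50.3 by day and 7.12 in the mixed tissues (log2 ratio 2.66 for the day gland over the mixed tissues). Adrb1, a noradrenaline receptor, was at 133 FPKM by night, 84.7 by day and 2.74 in the mixed tissues. In the day gland 2 of 25 were at least 4-fold higher than in the mixed tissues (Hr and Adrb1), 13 lower and 10 within. Of all genes compared, 2.29% were higher and 13.2% lower. The list median was -2.15 against -0.27 for all genes. Most of the 13 lower genes, such as Gh1 and Pck1, were under FPKM 1 in the gland and could be compared through the mixed tissues alone.

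**Figure D4:**
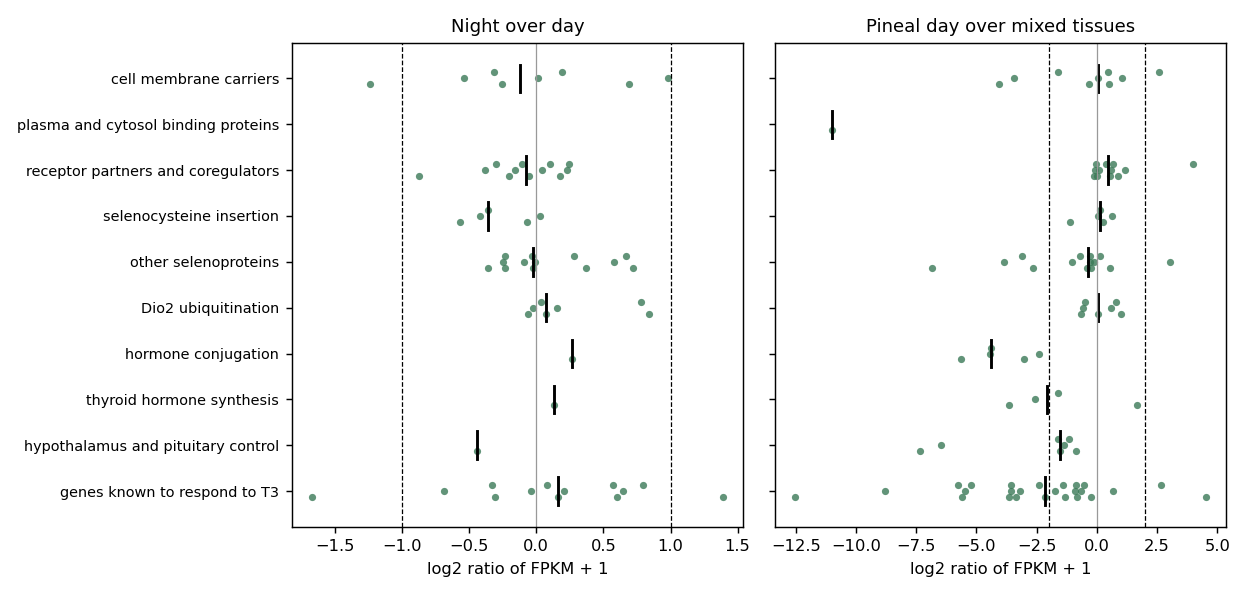
Log2 ratio of FPKM + 1 for each gene of 10 lists around thyroid hormone action, for night over day on the left and for the day gland over the mixed tissues on the right. Points are genes, black bars list medians and dashed lines mark 2-fold on the left and 4-fold on the right. The receptor partners lie at medians of -0.08 on the left and 0.48 on the right.

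Genes of hormone production and disposal included many listed at 0 in the gland, a listing that carries the limit given for Dio3. The pituitary hormone subunits Tshb and Cga were listed at 0 in both pineal libraries and at 88.9 and 160 FPKM in the mixed tissues. Tshr, the receptor of that hormone and the next entry to the right of Dio2 in the table, 707434 bases away, was listed at 0 in both pineal libraries and at 0.492 FPKM in the mixed tissues. Of 12 genes of thyroid hormone synthesis, 4 could be compared with the mixed tissues by day. Of these, 0 were at least 4-fold higher (2.29% of all genes compared) and 2 were lower (13.2%), both listed at 0 in the gland. Their median was -2.08 against -0.27 for all genes. The highest of the 12 in the gland was Slc26a4, the anion exchanger pendrin, at 11.7 FPKM by night, 10.6 by day and 2.65 in the mixed tissues. All of the 4 but Slc26a4 were listed at 0 in the gland and could only come out below the mixed tissues. Of the 5 genes of hormone conjugation, Sult1b1, Sult1e1 and Ugt1a1 were listed at 0 in both pineal libraries and Ugt1a6 was under FPKM 1 there, so these 4 could be compared through the mixed tissues alone and had to come out lower. Sult1a1, a sulfotransferase, was at 4.95 FPKM by night, 3.95 by day and 25.2 in the mixed tissues (log2 ratio -2.41 for the day gland over the mixed tissues). Pgpep1, a peptidase that cleaves thyrotropin-releasing hormone, was at 7.25 FPKM by night, 10.2 by day and 19.1 in the mixed tissues. Of 7 genes of hypothalamic and pituitary control, 2 were lower in the day gland than in the mixed tissues (13.2% of all genes compared) and 5 within 4-fold (median -1.53). All but Pgpep1 were under FPKM 1 in the gland. They were compared through the mixed tissues alone and had to come out below them, so the median was bound to be negative. Among the plasma binding proteins listed besides Ttr, Alb was found, at 0 in both pineal libraries and 2030 FPKM in the mixed tissues.

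Astrocytes are a known site of Dio2 in brain. The 7 astrocyte markers found summed to 152 FPKM by night, 204 by day and 772 in the mixed tissues. All 7 were within 2-fold between night and day (median -0.43), as were 93.7% of all genes compared. Most of the pineal sum came from Slc1a2, a glutamate transporter (58.4 FPKM by night, 72.6 by day and 74.2 in the mixed tissues), and Gja1, a gap junction protein (61.9 by night, 81.4 by day and 70.7 in the mixed tissues), neither of which was 4-fold apart from the mixed tissues. Gfap was at 5.16 FPKM by night, 10.2 by day and 165 in the mixed tissues. The part of astrocytes in the Dio2 level was not tested.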

How the data were processed

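Values are FPKM computed by the authors, per the file headers. Per the submitters' processing notes, TopHat 1.3.1 and Cufflinks 1.2.0 were used with genome build rn4. The sources used here do not give their options, the treatment of multi-mapped reads or any filters. Reads shared with near-identical copies may have been dropped or divided, which can list a gene at or near 0. Per the labels' protocols, poly(A) RNA was fragmented, primed at random, amplified with 15 PCR cycles and read as paired ends of 51 bases, 1 lane per library.

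The series table and the files per library were equal in 51267 of 51267 values. Entries of 1 symbol were summed. Depth was estimated from 1327 olfactory, vomeronasal and taste receptor models spanning 800 to 1100 bases, whose lowest values repeat in steps of 1 fragment: 22 models by day, 4 by night and 22 in the mixed tissues. Effective transcript lengths were not known, so bounds are approximate. The floor of 3 fragments on 1 kb is 0.568 FPKM by night, 0.344 by day and 0.311 in the mixed tissues. Calculations used Python 3.11.15, pandas 2.3.3 and scipy 1.17.1, and the calls were run on simulated data. The simulation held counting error only and planted differences well past the calling folds. It had no spread between libraries or animals, so it cannot show whether the calls would recur in other animals.

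The members, the 10 lists and 9 marker lists were chosen with earlier results of these data known. All members were named, and of each list those past the fold of a comparison and up to 4 of the highest in the day gland, together with examples chosen after their values were seen. Promoter sequences are from RefSeq (GRCr8), whose coordinates are not comparable with rn4. Some members of the lists are counted but not reported by name here.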

Additional observations from a re-analysis of the deposited data

How the results depend on the processing

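No paired analysis was possible because each group had 1 library. For the same reason no library could be left out. With a pseudocount of 0.1, 2 members (Dio2 and Thrb, log2 ratio 1.07) were at least 2-fold higher by night in place of 1. With a pseudocount of 5, 0 members were at least 4-fold lower than the mixed tissues by day or by night, in place of 2 each. At 2-fold in place of 4-fold, 4 members were lower in the day gland than in the mixed tissues, Dio2 and Thra being added to Dio1 and Slco1c1. The other 44 of 48 member counts under these settings were within 1.5 times, a band that takes in a change from 2 to 3. With a pseudocount of 0.1, 3 members were at least 4-fold lower than the mixed tissues by day, Dio2 (log2 ratio -2.05) being added. At 2-fold by night, 3 members were lower than the mixed tissues, Thra (log2 ratio -1.11) being added. The Dio2 log2 ratio of night over day ranged from 3.90 (pseudocount 5) to 7.09 (pseudocount 0.1), and that of night over the mixed tissues from 3.50 to 5.04. Centring moved all ratios by the medians given in the report. Of all genes compared, the split of 411 higher and 208 lower by night became 533 and 519 with a pseudocount of 0.1, 231 and 64 with one of 5, and 124 and 11 at 4-fold. Against the mixed tissues by day, 273 higher and 1581 lower became 424 and 2611 with a pseudocount of 0.1, 156 and 522 with one of 5, and 993 and 3445 at 2-fold. By night, 369 and 1725 became 207 and 553 with a pseudocount of 5, 1074 and 3725 at 2-fold, 492 and 2832 with a pseudocount of 0.1, and 548 and 1286 when centred. Depth limits statements on Slco1c1, Thrb and Slc16a10 in the gland, and on Dio2 by day.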
